A study of Mus musculus with 231 samples.

Results

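The microRNAs (miRNAs) described here are processed from the imprinted Dlk1-Dio3 domain on mouse chromosome 12. A list of 44 mature miRNA names of this domain was searched for in the deposited count table of the training cohort, and all 44 were among its 1863 mature miRNAs. The members fell into 3 stretches by their known order along the locus. There were 13 members at the Meg3 to Rtl1 end, 2 from the Rian transcript, and 29 in the dense array that runs from miR-379 to miR-410. Grouping used position alone and no measured value.

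The libraries were small RNA libraries of peripheral blood mononuclear cells (PBMC) from C57BL/6 mice. CM mice carry the conditional Cbfb-MYH11 knock-in allele (Cbfb56M/+) together with Mx1-Cre, a Cre recombinase whose promoter responds to interferon and therefore to poly(I:C). Injection of poly(I:C) switches on the fusion gene in blood-forming and other interferon-responsive cells, and acute myeloid leukemia (AML) follows. Ctrl mice were littermates given the same injections. The genotype code was CHW in all CM mice and CW, HW or WT in Ctrl mice, and the labels do not spell these codes out. Both sexes were present in both arms. The training cohort held 53 libraries from 7 CM mice and 76 libraries from 7 Ctrl mice, taken before induction (month 0) and at months 1 to 10 or until the mouse was moribund. Blood cells of several types are pooled in each library, so fewer cells of a type and less RNA per cell cannot be told apart.

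Imprinting means that only the copy inherited from one parent is active. In the Dlk1-Dio3 domain the maternal copy gives long noncoding transcripts, Meg3, Rian and Mirg, and the miRNAs along them, whereas the paternal copy gives the coding genes Dlk1, Rtl1 and Dio3. The miRNAs are abundant in embryo, placenta and brain, and in blood they are best known from hematopoietic stem cells, where they restrain growth signaling. In mature blood cells the locus is mostly quiet.

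Mature sequences from RefSeq (build GRCm38.p6) were found for 41 of the 44 members, all on the plus strand of chromosome 12 between positions 109572004 and 109743784. Names were not matched for mmu-miR-376c-3p, mmu-miR-485-5p and mmu-miR-487b-3p. The 41 sequences had 41 different seeds (bases 2 to 8 from the 5′ end, which pair with target mRNAs), so no 2 of these members shared a full seed. The sequences below are those of the members on which the results turn, in order along the locus, with the seed in capitals.
mmu-miR-127-3p: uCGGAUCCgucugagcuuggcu
mmu-miR-379-5p: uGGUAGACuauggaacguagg
mmu-miR-411-5p: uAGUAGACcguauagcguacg
mmu-miR-494-3p: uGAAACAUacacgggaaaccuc
mmu-miR-382-5p: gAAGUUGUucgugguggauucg
mmu-miR-134-5p: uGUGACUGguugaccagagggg
mmu-miR-377-3p: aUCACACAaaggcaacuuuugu
mmu-miR-541-5p: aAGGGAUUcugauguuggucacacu
mmu-miR-409-5p: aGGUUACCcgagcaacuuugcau
mmu-miR-369-3p: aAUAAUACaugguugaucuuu

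The first of these, mmu-miR-127-3p, lies at chr12:109592888-109592909 opposite an exon of Rtl1, a gene its hairpin can silence because the pairing is perfect. The mature mmu-miR-379-5p, at chr12:109709065-109709085, opens the downstream array and lies between annotated genes in GENCODE vM1. The mature mmu-miR-541-5p, at chr12:109742422-109742446, lies within an intron of Mirg close to the far end. In the same annotation, 8 of the 13 members of the Meg3 to Rtl1 end lay opposite Rtl1 exons, and both Rian members lay in Rian introns.

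The cluster was scarce in all blood libraries. Library totals ran from 1792809 to 7958411 counts with a median of 4437464, and the 44 members together took 18021 counts over all training libraries. The most abundant was mmu-miR-541-5p, at a mean of 8.34 CPM (counts scaled to a common library size by TMM, the trimmed mean of M-values) and 4165 counts in all. It was followed by mmu-miR-379-5p at 6.86 CPM, mmu-miR-411-5p at 3.95 CPM, mmu-miR-127-3p at 3.41 CPM, mmu-miR-409-5p at 1.37 CPM and mmu-miR-494-3p at 0.976 CPM. All other members had lower means. At the low end, mmu-miR-668-3p had 5 counts and mmu-miR-337-3p 10 counts over the whole training cohort. For most members, then, 1 library held between 0 and a few counts, and counting error alone was large.

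The summed level of the 44 members was low in Ctrl mice and high late in most CM mice. Over the 76 Ctrl libraries the sum ranged from 3.63 to 40.4 CPM with a median of 13.0 CPM. Before induction the 7 CM mice had between 6.59 and 13.2 CPM. In the last library of each CM mouse the sum was 501 CPM in mouse 3336 (month 7), 417 CPM in 3338 (month 4), 135.5 CPM in 3334 (month 6.5), 124.3 CPM in 3370 (month 9), 65.7 CPM in 3368 (month 10), 61.7 CPM in 3357 (month 4) and 14.1 CPM in 3341 (month 6). Thus 6 of 7 last CM libraries lay above every Ctrl library, whereas that of 3341 lay near the Ctrl median. The sums are a description with no test.

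**Figure D1:**
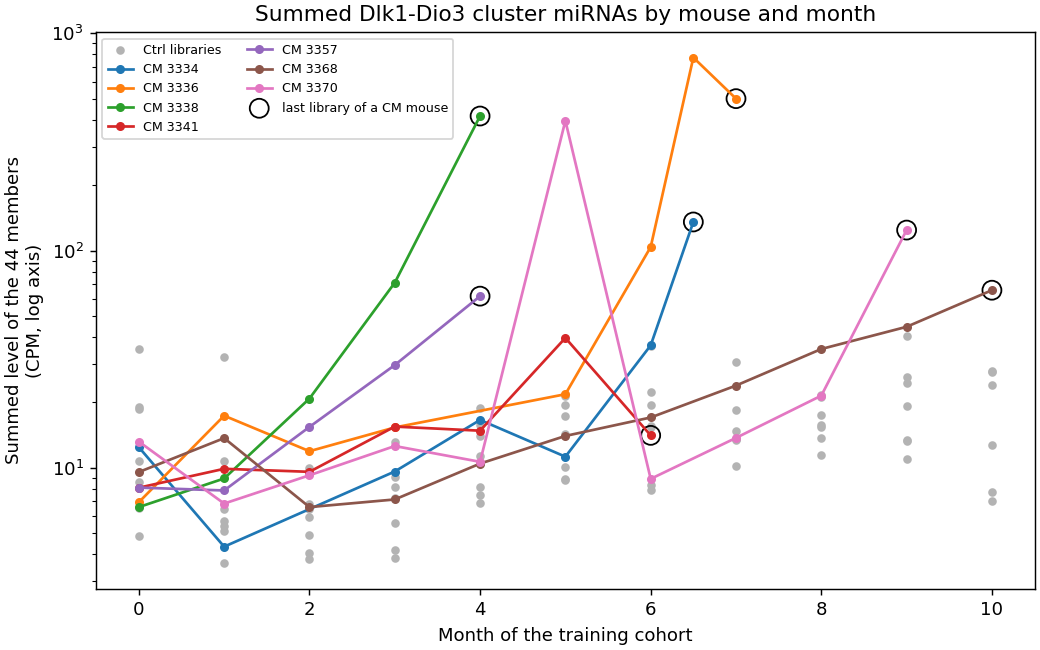
Summed level of the 44 members in CPM on a log axis against the month, 1 line for each of the 7 CM mice, grey points for the 76 Ctrl libraries and a ring around the last library of each CM mouse. Lines of 6 CM mice end above the highest Ctrl library (40.4 CPM), and that of 3341 ends at 14.1 CPM.

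The course was steep in some mice and slow in others. In mouse 3338 the sum went from 6.59 CPM at month 0 through 20.8 CPM at month 2 and 71.1 CPM at month 3 to 417 CPM at month 4. In mouse 3336 it was 21.8 CPM at month 5, 103.9 CPM at month 6, 775 CPM at month 6.5 and 501 CPM at month 7. Mouse 3334 had 36.6 CPM at month 6 and 135.5 CPM at month 6.5, and mouse 3357 had 15.4, 29.7 and 61.7 CPM at months 2, 3 and 4. In each of these mice an earlier library already lay above that of month 0. In mouse 3368 the sum climbed month by month from 6.59 CPM at month 2 to 65.7 CPM at month 10, and it first passed the highest Ctrl library at month 9. Mouse 3341 never passed it: its highest sum was 39.6 CPM at month 5. Mouse 3370 had 8.89, 13.7, 21.5 and 124.3 CPM at months 6 to 9, after a single high library of 396 CPM at month 5 that is described separately.

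The late excess lay in the miR-379 to miR-410 array, and in mouse 3368 also in the Meg3 to Rtl1 end. The array summed to between 2.10 and 25.3 CPM in Ctrl libraries and to between 11.7 and 494 CPM in the last CM libraries, 6 of 7 of which exceeded all Ctrl libraries. The Meg3 to Rtl1 end summed to between 0.237 and 14.8 CPM in Ctrl libraries and to between 2.41 and 22.4 CPM in the last CM libraries, of which 1, that of 3368, exceeded all Ctrl libraries. The array therefore took 99.2% of the members' counts in the last library of 3338, 98.6% in 3336, 95.9% in 3334, 93.6% in 3370, 89.5% in 3357, 82.9% in 3341 and 65.5% in 3368. The same share was 59.4% over the 7 CM libraries of month 0 and 63.95% over all Ctrl libraries. These values are descriptive, and no test of the difference between both ends was run.

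**Figure D2:**
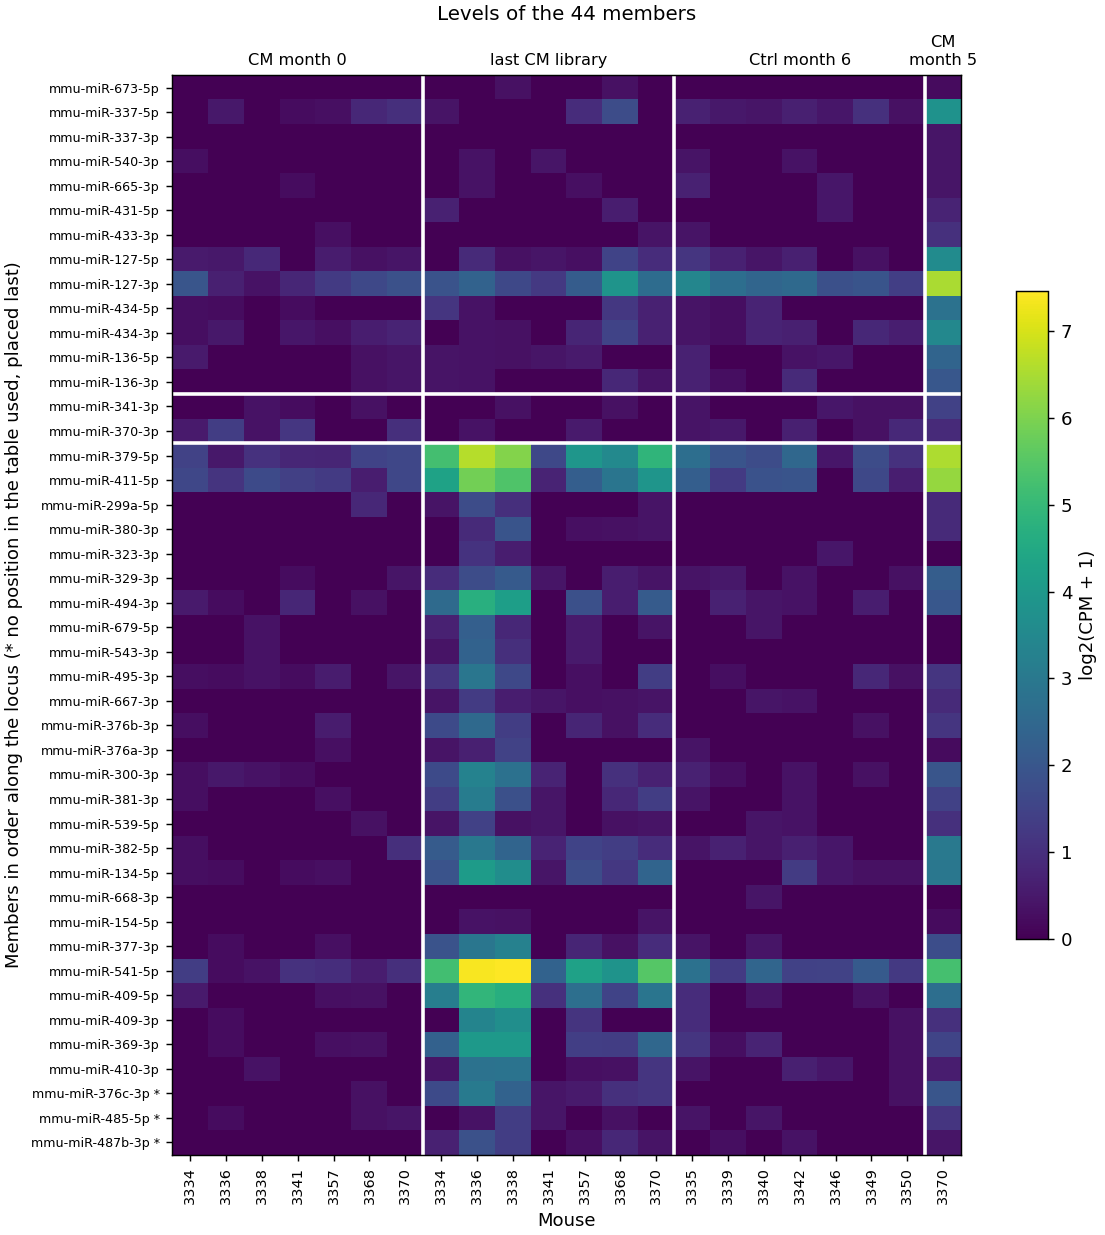
Levels of the 44 members as log2(CPM + 1), in rows along the locus, in 7 CM libraries of month 0, the 7 last CM libraries, 7 Ctrl libraries of month 6 and the month 5 library of CM mouse 3370 (white lines part the groups and the 3 stretches of the locus). The last CM libraries are bright in the lower rows, where mmu-miR-541-5p reached 175 CPM in mouse 3338, and darker in the upper rows, whereas the month 5 library is bright in both.

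Single members were compared between the last libraries of the 7 CM mice and their own month 0 libraries. Fits were not paired by mouse unless a block is named. In the last libraries mmu-miR-541-5p stood at 35.6 CPM in 3334, 166 in 3336, 175 in 3338, 4.13 in 3341, 18.3 in 3357, 13.3 in 3368 and 43.7 in 3370. In the month 0 libraries of the same mice, in the same order, it stood at 1.55, 0.193, 0.275, 1.10, 0.954, 0.517 and 0.990 CPM. The last libraries all lay above the month 0 libraries. mmu-miR-541-5p was higher by 6.55 ± 0.92 (SE) on the log2 scale, with an adjusted p of 0.000284 (edgeR quasi-likelihood test, Benjamini-Hochberg over 446 miRNAs, 7 against 7 libraries). It was the only member to pass the filter on low counts, which it did through its last libraries, so it had to differ and nothing is read from the count. The filter left 446 miRNAs, of which 39% were called in either direction and 23.1% were called higher.

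Without that filter, 42 of the 44 members had a count in these 14 libraries, and 23 were called higher and none lower (edgeR, adjusted over 1613 miRNAs). Over all miRNAs tested in that way, 7.25% were called higher. All 23 belonged to the miR-379 to miR-410 array, which had 28 members tested. The 5 tested members of the array that did not pass were mmu-miR-376a-3p, mmu-miR-299a-5p, mmu-miR-485-5p, mmu-miR-323-3p and mmu-miR-154-5p, with log2 differences between 1.54 and 3.09. None of the 12 tested members of the Meg3 to Rtl1 end and neither Rian member was called in this fit, although mmu-miR-127-3p was in others given with its values. Among members with more than 3 counts in a group, the median log2 difference was 3.71 over 27 members of the array and 0.67 over 8 members of the Meg3 to Rtl1 end, with groups at 0 set to a floor of 3 counts. Over all miRNAs tested the median was 0.01. Most of these array members had more than 3 counts only in the last libraries. The choice of members therefore favours high differences, and the median over all miRNAs is no like background.

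After mmu-miR-541-5p, the most abundant member of the array was mmu-miR-379-5p, which stood at 36.5, 98.7, 66.2, 2.06, 14.2, 10.4 and 28.6 CPM in the last libraries of mice 3334, 3336, 3338, 3341, 3357, 3368 and 3370. At month 0 the same mice had 1.78, 0.386, 1.10, 0.736, 0.715, 1.81 and 1.98 CPM. The groups did not overlap, although mouse 3341, with 6 counts in its last library, lay barely above the month 0 range. The log2 difference was 4.89 ± 0.66 with an adjusted p of 5.32e-05 (edgeR without the filter). Its neighbour mmu-miR-411-5p, which has another seed, had 60, 201, 161, 2, 16, 25 and 45 counts in the last libraries and 9, 6, 8, 9, 6, 2 and 6 at month 0. Here the groups overlapped through mouse 3341 alone. Its log2 difference was 3.67 ± 0.67, with an adjusted p of 0.000901 in the same edgeR fit.

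In less abundant members mice 3336 and 3338 were again highest and 3341 lowest. In the last libraries mmu-miR-409-5p stood at 8.04, 29.1, 24.8, 1.03, 5.57, 1.83 and 6.46 CPM, against 0.444, 0, 0, 0, 0.238, 0.258 and 0 CPM at month 0, and the groups did not overlap. Its log2 difference was 6.03 ± 0.84 (adjusted p = 7.51e-05, edgeR without the filter). For mmu-miR-494-3p the last libraries had 16, 87, 67, 0, 11, 2 and 11 counts, against 2, 1, 0, 4, 0, 1 and 0 at month 0. Mice 3341 and 3368 lay within the month 0 range, and the log2 difference was 4.73 ± 0.92 (adjusted p = 0.00157, edgeR without the filter).

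A further 4 members were chosen after their values were seen. Among them mmu-miR-134-5p, known in neurons for its control of dendritic spines, had 9, 56, 45, 1, 10, 5 and 14 counts in the last libraries and 1, 1, 0, 1, 1, 0 and 0 at month 0. Its log2 difference was 5.09 ± 0.80 (adjusted p = 0.000299, edgeR without the filter). For mmu-miR-382-5p the last libraries had 11, 24, 17, 2, 8, 6 and 3 counts, against 1, 0, 0, 0, 0, 0 and 3 at month 0. The groups overlapped, with mouse 3370 at 0.990 CPM at month 0 and 0.923 CPM at the end. Its log2 difference was 4.02 ± 0.79 (adjusted p = 0.00159, edgeR without the filter). Last libraries had 13, 53, 60, 0, 7, 6 and 15 counts of mmu-miR-369-3p, and 9, 23, 34, 0, 3, 1 and 3 counts of mmu-miR-377-3p. Both were so rare at month 0, with 3 and 2 counts over the 7 mice, that no fold is given.

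The Meg3 to Rtl1 end behaved differently in the same libraries. Its most abundant member, mmu-miR-127-3p, had 9 counts in mouse 3334, 14 in 3336, 8 in 3338, 4 in 3341, 15 in 3357, 52 in 3368 and 17 in 3370 in the last libraries. At month 0 these mice had 13, 3, 1, 4, 6, 8 and 8 counts. The groups overlapped, and mice 3336 and 3338, highest for the array, were not highest here. The log2 difference was 1.60 ± 0.55, with an adjusted p of 0.0588 (edgeR without the filter), and with each mouse as a block it was 1.51 ± 0.48 with an adjusted p of 0.0149. It was also called without pairing in the library before the last (1.78 ± 0.49, adjusted p = 0.0152, edgeR with the filter) and with the G number, a label of each training library with no stated meaning, as a covariate (2.93 ± 0.82, adjusted p = 0.0145, edgeR without the filter). In the Rian part, mmu-miR-370-3p had 3 counts over the last libraries against 21 at month 0, a log2 difference of -2.25 ± 0.90 that did not pass (adjusted p = 0.109, edgeR without the filter).

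**Figure D3:**
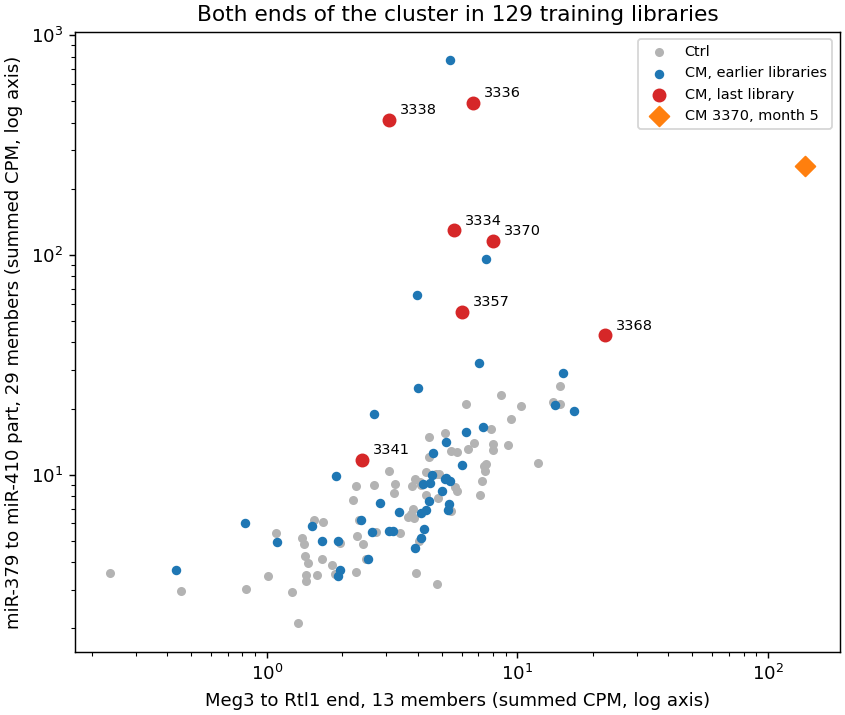
Summed CPM of the 13 members at the Meg3 to Rtl1 end (x, log axis) against that of the 29 members of the miR-379 to miR-410 array (y, log axis), 1 point for each training library. Last libraries of CM mice 3334, 3336, 3338, 3357 and 3370 lie above the Ctrl libraries at like x values, 3368 is farther right at 22.4 CPM, and the month 5 library of 3370 lies farthest right at 140.5 CPM.

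Most members with enough counts had a like order of mice across the last libraries. Of the 21 members with at least 20 counts over these 7 libraries, mice 3336 and 3338 held the highest 2 values in 19 (90.5%). Mouse 3341 held the lowest value, ties included, in 18 (85.7%). Over the 660 miRNAs with as many counts, 8.48% had mice 3336 and 3338 highest and 15.5% had mouse 3341 lowest, ties included. Only mmu-miR-127-3p came from the Meg3 to Rtl1 end among these 21, and it was highest in mouse 3368. Members that share a primary transcript or a library share their source, so they are not independent replicates, and these shares are a description. A rare member reaches 20 counts mainly through the libraries where it is high. The choice of the 21 members therefore favours mice 3336 and 3338, and the share over all miRNAs is no like background.

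The same last CM libraries were then set against the month 6 libraries of the 7 Ctrl mice, which differ in age from some of them. Ctrl mice 3335, 3339, 3340, 3342, 3346, 3349 and 3350 had 5.84, 1.41, 4.35, 1.72, 1.79, 3.34 and 1.35 CPM of mmu-miR-541-5p. All last CM libraries except that of 3341 were higher than these. The difference was 4.64 ± 0.80 on the log2 scale (adjusted p = 0.00338, edgeR over 425 miRNAs). For mmu-miR-379-5p, with 5.53, 2.83, 2.34, 4.58, 0.358, 2.31 and 1.08 CPM in Ctrl mice, it was 3.85 ± 0.73 (adjusted p = 0.00338, edgeR). For mmu-miR-411-5p, with 12, 7, 8, 10, 0, 8 and 2 counts in Ctrl mice, it was 3.53 ± 0.82 (adjusted p = 0.00636, edgeR). These 3 were called among 4 members tested, whereas 32.2% of all miRNAs tested were called and 21.4% were called higher. They passed the filter on low counts largely through the CM libraries, so the count is no support.

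The fourth member tested, mmu-miR-127-3p, had 32, 27, 13, 17, 7, 11 and 6 counts in Ctrl mice at month 6, and its difference was 0.13 ± 0.48 (adjusted p = 0.856, edgeR). Without the filter, 21 of 43 members tested were called higher and none lower, all in the array, against 6% of all miRNAs called higher. The counts of mmu-miR-409-5p in Ctrl mice were 3, 0, 1, 0, 0, 1 and 0, below all 7 last CM libraries in CPM. Both late comparisons share the last CM libraries, so they are not independent.

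For 3 members the change in CM mice was larger than that in Ctrl mice. In the Ctrl arm from month 0 to month 6, 2 members could be tested and none was called by edgeR, against 20.5% of all 474 miRNAs (97). Neither of them had an unadjusted p under 0.05, which 161 of the 474 had. Without the filter 2 of 43 members had one, against 273 of all 1589 miRNAs, and none of the 43 was called. Of these 2, mmu-miR-541-5p was at 1.36 ± 0.45 (adjusted p = 0.0879, edgeR) and mmu-miR-410-3p at 2.00 ± 0.94 (adjusted p = 0.270, edgeR). With the filter the values were 0.85 ± 0.51 for mmu-miR-127-3p (adjusted p = 0.254, edgeR) and -0.25 ± 0.60 for mmu-miR-379-5p (adjusted p = 0.824, edgeR). limma-trend on the deposited CPM called 1 member, mmu-miR-541-5p, higher by 0.86 on the log2(CPM + 1) scale (adjusted p = 0.0399). The interaction of arm and time tested the difference between both courses, without pairing the libraries of a mouse. It was 5.41 ± 0.99 for mmu-miR-379-5p (adjusted p = 0.00300, edgeR over 512 miRNAs). It was 5.21 ± 1.01 for mmu-miR-541-5p (adjusted p = 0.00300) and 3.94 ± 1.00 for mmu-miR-411-5p (adjusted p = 0.0108) in the same edgeR fit. For mmu-miR-127-3p it was 0.85 ± 0.76 (adjusted p = 0.413, edgeR). Of 4 members tested 3 were called, against 14.8% of all miRNAs called and 8.98% called higher, and without the filter 7 of 44 were called higher, against 1.97%. mmu-miR-541-5p and mmu-miR-411-5p did not pass the filter in Ctrl mice alone and entered this fit through the last CM libraries, so nothing is read from the count.

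The size of these late differences rested in part on mice 3336 and 3338. Without both, and without the filter, 7 members remained called against month 0 (2.42% of all miRNAs called higher) and 9 against Ctrl month 6 (3.2% called higher). The G number of the libraries also moved with the groups. The last CM libraries carried G numbers 1, 3 and 6, and those of month 0 numbers 2 to 7. When the G number was added as a covariate, edgeR with the filter called no miRNA in either comparison (0%). The difference of mmu-miR-541-5p against month 0 was then 6.48 ± 1.69 (adjusted p = 0.117, edgeR). Without the filter 13 members were called against month 0, of which mmu-miR-127-3p lies at the Meg3 to Rtl1 end, and 1 against Ctrl month 6, where 2.54% and 0.937% of all miRNAs were called higher.

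Month by month, CM and Ctrl mice were compared at months 0 to 6. At months 0 to 3 no member passed the filter on low counts, so none could be called, while 0.209%, 27.5%, 13.5% and 22% of all miRNAs were. At months 4, 5 and 6, 3, 4 and 2 members were tested and edgeR called none, where 0.837%, 0% and 0% of all miRNAs were called. Of these members 2, 4 and 1 had an unadjusted p under 0.05. Without the filter the numbers with an unadjusted p under 0.05 at months 0 to 6 were 3, 2, 8, 14, 18, 18 and 8, and DESeq2 with the filter called 2 members over the 7 months, mmu-miR-379-5p at month 4 and mmu-miR-541-5p at month 5, where it called 4.81% and 4.16% of all miRNAs. At month 4 mmu-miR-541-5p differed by 4.40 ± 1.07 (adjusted p = 0.0562, edgeR), and by 1.68 without mouse 3338, whose library there was its last. mmu-miR-379-5p differed there by 2.83 in edgeR, and by 0.89 without mouse 3338. At month 5 mmu-miR-541-5p differed by 2.18 in edgeR, and by 0.91 without mouse 3370. Without the filter 4 members were called at month 3, namely mmu-miR-541-5p, mmu-miR-411-5p, mmu-miR-494-3p and mmu-miR-381-3p, against 2.91% of all miRNAs called higher. In the same way mmu-miR-337-5p was called at month 2 (1.44% called higher), and mmu-miR-541-5p and mmu-miR-409-5p at month 4 (0.705% called higher). At month 3 mouse 3338 stood apart in the summed level (71.1 CPM, other CM mice 7.15 to 29.7 CPM). No unfiltered fit of a single month left this mouse out.

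The month 5 library of CM mouse 3370 had another makeup. It held 2308 member counts of 6190176, whereas the libraries of the same mouse at months 4 and 6 held 41 and 30. Both ends of the cluster were high: the Meg3 to Rtl1 end took 35.4% of the member counts, near the 32.2% of Ctrl libraries and far from the 6.44% of the last library of the same mouse. mmu-miR-127-3p reached 523 counts (89.8 CPM, against a median of 2.47 CPM over all training libraries), the highest of all libraries. mmu-miR-379-5p had 537 counts, mmu-miR-411-5p 445 and mmu-miR-541-5p 218. Of the 13 members at the Meg3 to Rtl1 end, 12 had their highest count of the training cohort here, ties included, against 1 of 29 in the array. In CPM, which allows for the depth of this library, the numbers were 9 of 13 and 0 of 29.

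Some miRNAs of cells other than blood were high in this library. The vessel wall markers miR-143-3p and miR-145a-5p, abundant in smooth muscle, summed to 2001 CPM, the highest of all training libraries, whose median was 483 CPM. Muscle markers summed to 664 CPM and the liver marker stood at 5.84 CPM, against medians of 99.6 and 2.06 CPM. Neural markers went the other way, at 0.343 CPM against a median of 4.29 CPM. miR-199a-5p, abundant in fibroblasts, stood at 642 CPM against a median of 1.89 CPM, and its neighbour miR-214-3p at 88.6 CPM against 0.953 CPM, both chosen after their values were seen. The part of such cells in the high member counts was not tested. At month 5 the CM and Ctrl arms differed by 3.28 ± 0.90 for mmu-miR-127-3p and by 3.23 ± 0.85 for mmu-miR-379-5p (adjusted p = 0.106 for both, edgeR), and without mouse 3370 by 0.79 and 1.11. Without mice 3334 and 3335, whose running numbers change places in the labels, mmu-miR-379-5p, mmu-miR-541-5p and mmu-miR-127-3p were called higher at month 5 (7.24% of all miRNAs called higher).

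In the last CM libraries the vessel wall markers were low in most mice. miR-143-3p stood at 56.0 CPM in 3336, 18.9 CPM in 3338, 29.9 CPM in 3341, 70.8 CPM in 3357, 209 CPM in 3370, 271 CPM in 3334 and 1535 CPM in 3368. The vessel wall sum had a median of 73.3 CPM there, against 469 CPM at month 0 and 665.2 CPM in Ctrl mice at month 6. The libraries with the highest array sums, those of 3336 and 3338, were thus among the lowest for these markers, as was that of 3341, lowest for the array. Mouse 3368 went the other way: its miR-143-3p went from 373 to 1535 CPM and its mmu-miR-127-3p from 2.07 to 13.6 CPM between month 0 and month 10, and the part of the one in the other was not tested.

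Blood cell markers moved as well. Of all miRNAs tested, 39% were called against month 0 and 32.2% against Ctrl month 6 (edgeR). Lymphocyte markers (miR-150 and miR-342, both arms) had a median sum of 25497 CPM in the last CM libraries and 55984 CPM at month 0, with 3 of 4 called lower (edgeR). In Ctrl mice at month 6 their median was 32515 CPM, and none was called in that comparison. Myeloid markers (miR-223, both arms) had medians of 4543 CPM in the last CM libraries and 9138 CPM at month 0. Of these 1 of 2 was called lower against month 0 and none was called against Ctrl month 6. Erythroid markers had medians of 32240 CPM in the last CM libraries, 49640 CPM at month 0 and 99581 CPM in Ctrl mice at month 6. Of these 4 markers 1 was called higher and 1 lower against month 0, and 2 were called lower and none higher against Ctrl month 6 (edgeR). Progenitor markers (miR-126a, both arms, miR-125b-5p and miR-99a-5p) had medians of 4036 and 2621 CPM, with 2 of 4 called higher against month 0 and against Ctrl month 6. Across mice the order differed from that of the cluster: the last library of 3341, lowest for the cluster, had the highest miR-126a-3p, 4584 CPM, and 3336 had 1412 CPM. Muscle markers had medians of 25.5 CPM in the last CM libraries and 120 CPM at month 0, the liver marker of 1.39 and 1.91 CPM, and neural markers of 0.464 and 2.15 CPM. The part of cell makeup in the differences was not tested.

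Other miRNAs of the locus were rarer still. Of 33 opposite arms of the listed hairpins, 21 had a count in the last and month 0 libraries and 7 were called higher without the filter. Of 33 other hairpins of the locus, 21 could be tested and 2 were called higher, a share near the 7.25% of all miRNAs called higher in that fit. The opposite arm mmu-miR-299a-3p had 40 counts over the last libraries and 2 at month 0, and mmu-miR-329-5p had 37 and 4. mmu-miR-1193-3p, from another hairpin, had 31 and 1. mmu-miR-1247-5p, near Dio3 beyond the array, had 15 and 5, a log2 difference of 1.67 ± 0.76 that did not pass (adjusted p = 0.168, edgeR without the filter).

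The validation cohort was examined at its point 5, with 6 CM and 6 Ctrl mice, since the other points were far shallower (1744 to 76906 reads recovered per library, against 1645456 to 5445215 at point 5). Its table held 42 of the 44 members, lacking mmu-miR-376a-3p and mmu-miR-431-5p. The CM libraries of mice 2684, 2685, 2686, 2700, 2709 and 2718 had 51, 7, 7, 11, 5 and 10 reads of mmu-miR-541-5p. The Ctrl libraries of mice 2683, 2689, 2692, 2702, 2705 and 2720 had 1, 4, 12, 16, 11 and 6. Only mouse 2684 lay above all Ctrl mice. The difference was 0.95 ± 0.62 on the log2(CPM + 1) scale (adjusted p = 0.899, limma).

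Neither mmu-miR-379-5p, at -0.60 ± 0.67, nor mmu-miR-127-3p, at -0.60 ± 0.55, passed in the same limma fit. Of 11 members tested none was called, as was none of all 930 miRNAs (0%). With limma, 54 miRNAs and none of the members had an unadjusted p under 0.05, and edgeR on the recovered reads could test 1 member, which was not called. The summed deposited level ran from 59.6 to 364 CPM in CM mice and from 46.3 to 294 CPM in Ctrl mice, and both arms overlapped. Column sums of the deposited values ran from 6037690 to 16258800 at this point, so these CPM cannot be set beside the training CPM. In mouse 2684 the array held 120 member reads and the Meg3 to Rtl1 end 11. All CM mice of this point also have a library at point 6, so by this numbering none of these libraries is the last of its mouse. How far the CM mice of this point were from AML is not given by the labels, so these libraries cannot be matched to the last training libraries.

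**Figure D4:**
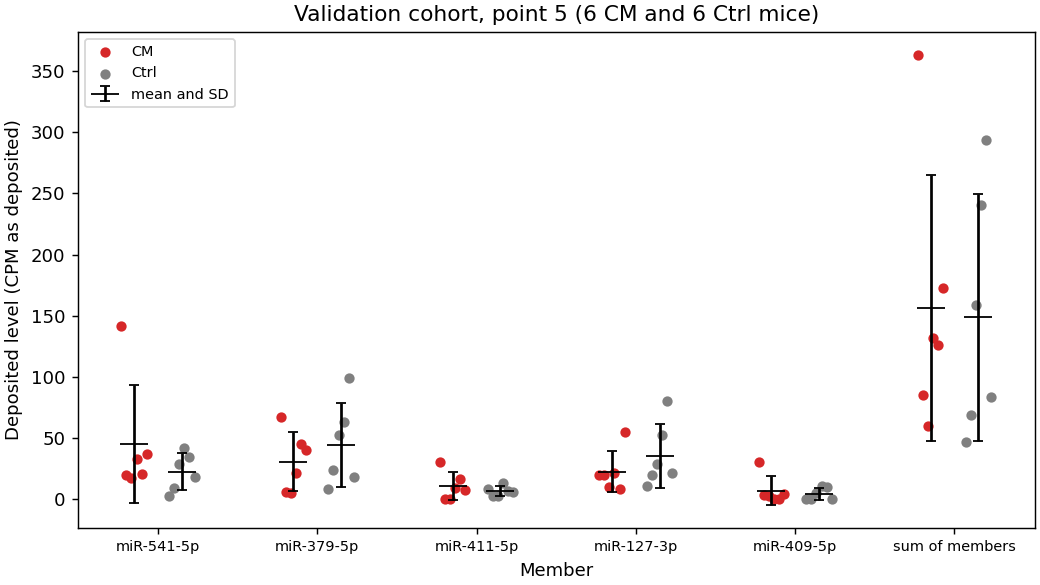
Deposited CPM of 5 members and of the sum of the members (x) at point 5 of the validation cohort, with 1 point for each of 6 CM and 6 Ctrl mice, and bars for the mean and SD. Both arms overlap in each column, and CM mouse 2684 stands highest for the sum, at 364 CPM.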

How the data were processed

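PBMC small RNA of training and validation mice was sequenced by the authors, who per their methods trimmed reads with cutadapt, aligned them with Bowtie to mm9 and scaled them with edgeR. The deposited training table held whole-number counts of 1863 mature miRNAs. The deposited CPM tables were treated as a scaled signal, since column sums ran from 505180 to 1582940 in training and from 6037690 to 16258800 at validation point 5. Low values there gave whole reads for 100% of values above 0 (tolerance 0.1 read), and those reads were tested as an alternative.

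Counts were scaled by TMM and tested with edgeR 4.0.16 (R 4.3.3, quasi-likelihood, filterByExpr with a minimum count of 10), with Benjamini-Hochberg adjustment over all miRNAs tested and a threshold of 0.05. For validation, limma-trend (limma 3.58.1) was fitted to log2(CPM + 1) after dropping miRNAs that reached 1 CPM in fewer libraries than the smaller group. DESeq2 1.42.0, other filters, left-out mice and the mouse as a block were alternatives. The scripts were tested on simulated data. Sums have no test. Month 0 and later libraries of the same mouse were matched by the mouse number in the labels. The main fits of late against month 0 libraries, and the interaction, did not use this pairing. Each mouse therefore enters them more than once, and only the fits with the mouse as a block allow for it. In comparisons between arms, replicates are mice, with 1 library each.

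Every library value was given for the 6 members of highest mean CPM and for up to 6 called members of largest change at 10 CPM or more, which named only mmu-miR-541-5p. The members, the lists and these rules were chosen with earlier results of these data known. Near-identical members (mmu-miR-376a, b and c, or mmu-miR-300 and mmu-miR-381) may share reads. All sequences and positions are from RefSeq, build GRCm38.p6. Host genes are from GENCODE vM1, an older build used for names only. Total counts limit precision, and intervals were not computed for single libraries.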

Additional observations from a re-analysis of the deposited data

Results flagged for a closer look

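Among 57 groups of 4 to 10 libraries examined, 12 had a library set far apart from the others. The rule is set to flag about 5% of groups by chance, if values are normally distributed and groups independent. These groups share libraries and members, and some hold few counts, so the number cannot be weighed against that level. The summed level of the members was apart in CM mouse 3338 at month 3 (71.1 CPM, others 7.15 to 29.7 CPM) and at month 4 (417 CPM, others 10.5 to 61.7 CPM), and in CM mouse 3370 at month 5 (396 CPM, others 11.2 to 39.6 CPM). Among Ctrl mice it was apart in 3342 at month 1 (32.3 CPM, others 3.63 to 10.8 CPM) and in 3340 at month 7 (30.8 CPM, others 10.2 to 18.4 CPM).

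mmu-miR-127-3p was apart in the last library of CM mouse 3368 (13.6 CPM, others 1.38 to 5.23 CPM) and in Ctrl mouse 3342 at month 0 (6.92 CPM, others 0.609 to 3.12 CPM). mmu-miR-409-5p was apart in Ctrl mouse 3335 at month 6 (0.922 CPM, others 0 to 0.334 CPM), which is 3 counts.

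At point 5 of the validation cohort, CM mouse 2684 was apart from the other CM mice for mmu-miR-541-5p (142 CPM, others 17.4 to 36.7 CPM), for mmu-miR-409-5p (30.5 CPM, others 0 to 3.67 CPM) and for the summed level (364 CPM, others 59.6 to 172 CPM). CM mouse 2718 was apart for mmu-miR-127-3p (55.04 CPM, others 8.10 to 20.9 CPM).

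The course from month 0 differed between CM and Ctrl mice in 3 members by the interaction of arm and time: mmu-miR-379-5p by 5.41, mmu-miR-541-5p by 5.21 and mmu-miR-411-5p by 3.94 on the log2 scale (edgeR, adjusted p between 0.00300 and 0.0108). Of all miRNAs 14.8% were called in this fit and 8.98% were called higher. mmu-miR-541-5p and mmu-miR-411-5p entered it through the last CM libraries, so nothing is read from the count.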

How the results depend on the processing

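Alternatives with the filter removed together with another choice, those on recovered reads and those without mice 3336 and 3338 were chosen after seeing the data. Members called in the last CM libraries against month 0 numbered 1, and 23 with no filter, 8 with a filter blind to groups, 5 with limma-trend, 0 with the G number as a covariate, 13 with no filter and that covariate, 4 with the library before the last, and 7 with no filter and without mice 3336 and 3338. The mouse as a block called 1 of 1 (147 of 446), and with no filter 22 of 42 (241 of 1613). Leaving out each mouse gave 1 to 4 (4 without 3341, 2 without 3338), and 16 to 24 with no filter, where without 3357 mmu-miR-370-3p was called lower. Against Ctrl month 6 the count was 3, and 21 with no filter, 7 blind to groups, 5 with limma-trend, 0 with the G number, 1 with no filter and the G number, and 9 with no filter and without mice 3336 and 3338, with 3 to 3 and, unfiltered, 14 to 22 over left-out mice. The interaction called 3 of 4 (76 of 512), with 7 of 44 unfiltered (1.97% of all miRNAs called higher), 6 by limma-trend and 3 to 3 over left-out mice. Ctrl month 6 against month 0 called 0, and 1 by limma-trend, with 0 to 0 over left-out mice. Months 0 to 6 together called 0 of 9 member tests (300 of 3313), 2 of 9 by DESeq2 (451 of 3313) and 7 of 285 unfiltered (226 of 11067). They called 1 of 15 blind to groups (307 of 3355), 1 of 20 by limma-trend (353 of 4139) and 1 of 8 on recovered reads (389 of 3285). Without mice 3334 and 3335, whose running numbers change places in the labels, 3 of 9 were called (345 of 3320). Over left-out mice it was 0 to 1 (1 without 3334, 3335, 3341, 3368 or 3370). Nothing is read from these counts, and the cause of these moves was not tested.

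The difference of mmu-miR-127-3p against Ctrl month 6 turned from 0.13 to -0.64 with the G number and to -0.65 with no filter and the G number, and ran from -0.41 to 0.41 over left-out mice (-0.43 to 0.40 unfiltered). That of mmu-miR-379-5p in Ctrl mice ran from -0.38 to 0.028 over left-out mice. The median summed level of 124.3 CPM was 120.7 CPM in the deposited values, 115.01 CPM by raw library size, 80.6 CPM without mmu-miR-541-5p and 65.7 CPM without mice 3336 and 3338. The G number could not be fitted at month 4. Few counts per library limit all but the most abundant members.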

Other observations

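The 90 validation libraries outside point 5 held 3229 reads of the members in all, and their makeup differed from that of the deeper libraries. mmu-miR-485-5p took 2019 of these reads (62.5%) and had a read in 88 of the 90 libraries, whereas it had 1 read in the 12 libraries of point 5 and 49 counts in all training libraries. mmu-miR-369-3p had 316 reads there, mmu-miR-494-3p 262 and mmu-miR-434-5p 149, whereas mmu-miR-541-5p, the most abundant member of the training cohort, had 22. CM libraries had 0 to 171 reads of mmu-miR-485-5p with a median of 15.5, and Ctrl libraries 3 to 75 with a median of 11.5. As a share of the reads recovered from each library this was 0% to 6.71% with a median of 0.107% in CM libraries, and 0.0190% to 0.266% with a median of 0.0443% in Ctrl libraries. Several of these libraries come from the same mice, and no test was run.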
